A study of Mus musculus with 16 samples.

Results

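Bile acid sensing in the liver was examined through 10 genes. They encode the bile acid receptor FXR (Nr1h4), its partner receptor RXR alpha (Rxra), the small repressor SHP (Nr0b2), the receptors that SHP restrains (Nr5a2 and Hnf4a), and 5 genes that FXR is known to induce (Mafg, Osgin1, Zfp36l1, Fetub and Sdc1). The genes were chosen by name, with earlier results of these data known, and all 10 were present among 12618 genes of the deposited table. Messenger RNA was sequenced from mouse livers in 2 groups, 8 labelled control CRISPR and 8 labelled Cyp7a1 CRISPR. Both groups carried a CRISPR intervention, which is a gene editing method, and both were fed a Western diet for 8 weeks. The sources used here give no strain, sex, age, CRISPR guide or way of delivery. Nothing in the labels says that the libraries come from separate animals, and p-values therefore measure only the spread between these samples, which may be technical.

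FXR is a nuclear receptor of hepatocytes and enterocytes that binds bile acids and, paired with RXR, switches on target genes. SHP, its classical target, lacks a DNA-binding domain. It attaches to receptors such as LRH-1 (the product of Nr5a2) and HNF4 alpha and lowers the transcription of the bile acid synthesis genes Cyp7a1 and Cyp8b1. When the bile acid load falls, this brake is known to loosen. In the intestine, FXR also induces the hormone FGF15, which represses the same genes through the liver receptor Fgfr4.

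Library depth was 13.8 to 27.4 M recovered reads (M, mega), on average 21.02 M in controls and 23.4 M in the Cyp7a1 group. Editing was not visible as a loss of the targeted transcript in the libraries labelled Cyp7a1. Cyp7a1, whose product catalyses the first step of the classical route to bile acids, spanned 2148 to 5642 normalized counts in controls (median 3281) and 3069 to 5873 in the Cyp7a1 group (median 4892). Its log2 fold change was 0.43 (limma adjusted p = 0.227, exact permutation p = 0.0716). Gene-level counts cannot tell an edited transcript from an intact one, so every direction below rests on the labels. All 8 hepatocyte markers looked at (Alb, Apoa2, Ttr, Serpina1c, Cps1, Ass1, Cyp2e1 and Cyp2f2) were in the table, with a summed level of 1671510 to 2441060 normalized counts in controls and 1738170 to 2384850 in the Cyp7a1 group.

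Nr0b2 (ENSMUSG00000037583) lies on chromosome 4, 133553376 to 133556536, plus strand, of mm10 (GENCODE M21). Since it was the gene that changed, the 250 bases before its RefSeq start (GRCm38.p6, chr4:133553126-133553375, plus strand) are shown. Capitals mark exact matches to letters bound by receptors of the LRH-1 family.

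Nr0b2 upstream: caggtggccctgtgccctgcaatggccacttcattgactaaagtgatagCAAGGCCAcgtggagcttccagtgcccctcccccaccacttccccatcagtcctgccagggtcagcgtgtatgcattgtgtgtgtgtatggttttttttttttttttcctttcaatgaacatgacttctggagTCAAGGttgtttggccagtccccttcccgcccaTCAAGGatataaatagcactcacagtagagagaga

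Upstream windows were searched on both strands, and all 10 genes had at least 1 window in the RefSeq promoter table (14 windows). CAAGGCCA occurred once in the Nr0b2 window, beginning 201 bases before the start, and in 1.99% of all 32851 windows of this length. TCAAGG, a core searched for after the window had been read, began 68 and 35 bases before the start, and 12.5% of all windows held it. The receptor hexamer AGGTCA was found in the windows of Nr1h4, Nr5a2 and Rxra, and in 14.02% of all windows. The element typical of FXR, the inverted repeat AGGTCANTGACCT with at most 2 mismatches, had 0 matches in the 14 windows and was present in 0.959% of all windows. The direct repeat AGGTCANAGGTCA with at most 2 mismatches matched in 2 of the 14, for Nr1h4 and Rxra, against 3.24% of all windows. The hexamer is part of both repeats, and its match in the Nr1h4 window lies inside the direct repeat. Such matches describe letters in a short window and not binding. Elements beyond the 250 bases before the start were not searched, so 0 matches does not mean that a gene lacks one.

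Nr0b2 fell in the Cyp7a1-labelled livers. Controls had 359, 379, 563, 598, 598, 623, 637 and 785 normalized counts, and the Cyp7a1 group had 90.5, 102, 107, 117, 149, 168, 215 and 269. All 8 Cyp7a1-labelled livers lay below the lowest control, Control 16, and that control was 1.33 times the highest of them, Cyp7a1 26. The mean went from 568 ± 139 to 152 ± 62.6 (SD, n = 8 each), or to 0.259 of the control level (95% interval 0.19 to 0.354). The log2 fold change was -1.95 ± 0.21 (SE), with a limma adjusted p of 4.25e-05 over 12617 genes. The two-sided exact permutation p was 0.000155, the smallest that 8 against 8 libraries can give. In bulk tissue, fewer cells that express a gene and less RNA per cell cannot be told apart.

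Nr0b2 was the 1 member lower and 0 of the 10 were higher, while 3.05% of all genes tested were lower and 3.07% higher (6.12% in either direction). It was also the 1 member whose groups did not overlap, a pattern seen for 1.04% of all genes. Of the members' 10 log2 fold changes 5 were above 0, with a median of -0.03, and 6428 of all 12617 were above 0, with a median of 0.0034. The edgeR test on recovered reads called the same number of members, 1, and DESeq2 called 2, the second being Osgin1.

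**Figure D1:**
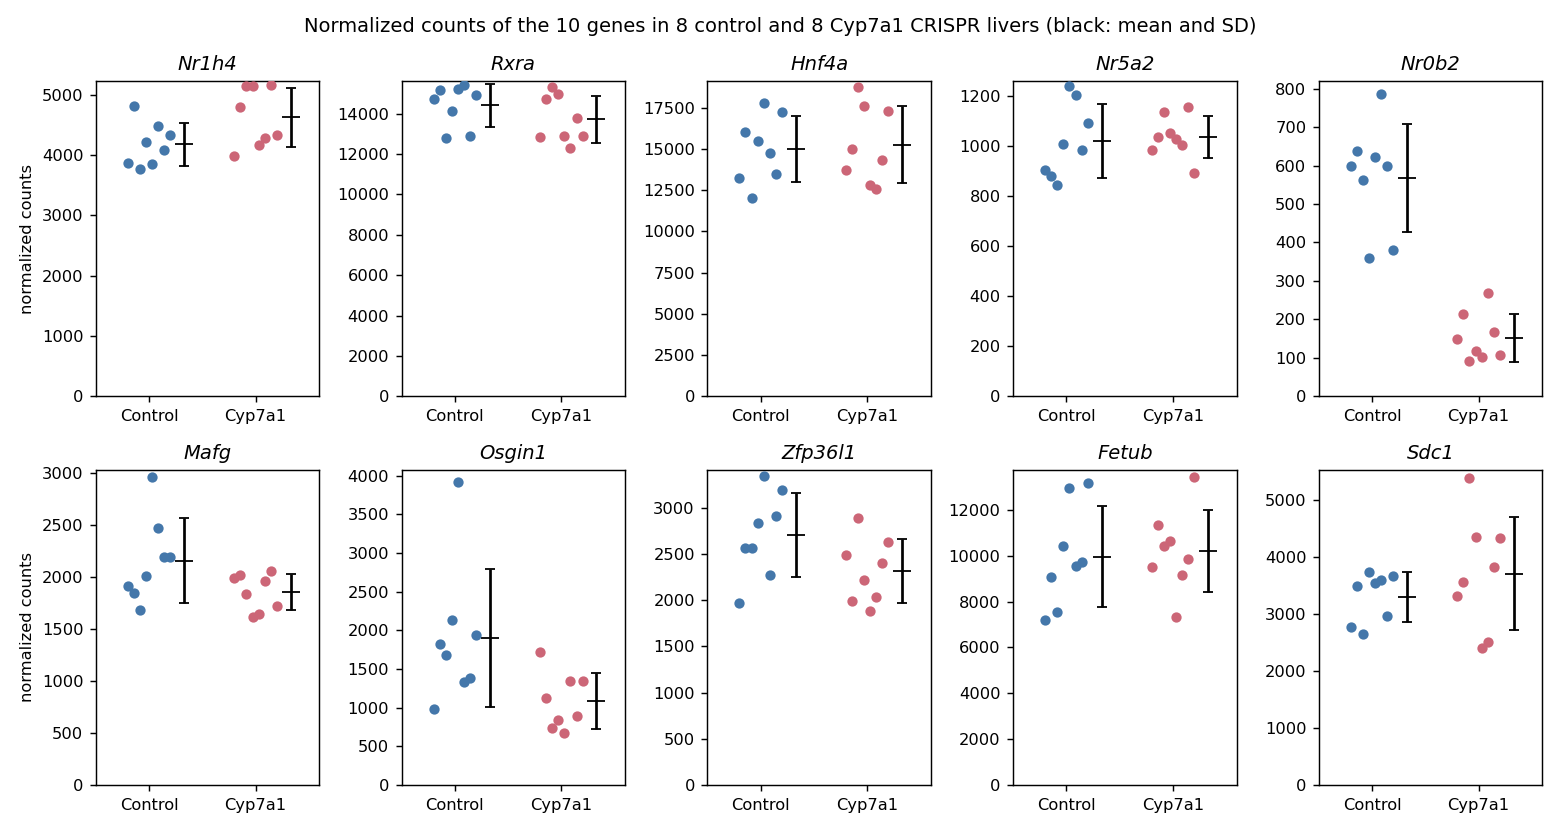
Normalized counts (vertical axes, from 0) of each gene in the 8 control and 8 Cyp7a1 CRISPR livers; each point is a library, and the black bar is the mean with its SD. The groups separate for Nr0b2, 359 to 785 against 90.5 to 269, and overlap for the other 9 genes.

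Nr1h4 and Rxra, the receptor and its partner, differed little between the groups. Nr1h4 (chromosome 10, 89454234 to 89533585, minus strand) had 3769 to 4817 normalized counts in controls (median 4150) and 3980 to 5157 in the Cyp7a1 group (median 4559). The ranges overlapped over most of their length, though 3 Cyp7a1-labelled livers, Cyp7a1 17, 19 and 28, exceeded every control. The log2 difference of Nr1h4 was 0.14 (95% interval 0.0020 to 0.29; limma adjusted p = 0.236, exact permutation p = 0.0586). Rxra (chromosome 2, 27676440 to 27762957, plus strand), which dimerises with FXR and several other receptors, ran from 12776 to 15417 in controls and 12292 to 15313 in the Cyp7a1 group. Its log2 fold change was -0.07 (95% interval -0.20 to 0.06). These intervals allow at most a 1.22-fold higher Nr1h4 and a level of Rxra between 0.87 and 1.04 of control.

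The receptors on which SHP acts showed the same overlap. Hnf4a (chromosome 2, 163506808 to 163572910, plus strand), a master regulator of hepatocyte genes, had 12054 to 17789 normalized counts in controls and 12551 to 18795 in the Cyp7a1 group. Its log2 fold change of 0.02 (95% interval -0.19 to 0.23) turned to -0.03 with quantile normalization. Nr5a2 (chromosome 1, 136842571 to 136960448, minus strand) encodes LRH-1, an activator of Cyp8b1 and of Nr0b2 itself. It had 845 to 1242 normalized counts in controls and 895 to 1157 in the Cyp7a1 group, within the control range in all 8 livers, and a log2 fold change of 0.03 (95% interval -0.14 to 0.20). The limma adjusted p was 0.939 for Hnf4a and 0.880 for Nr5a2.

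The fall of Nr0b2 was also expressed within each library as a ratio to the other members. As most of these members moved little, the ratios largely restate that fall and are no separate support for it. The log2 ratio of Nr0b2 to Nr1h4 went from -2.91 ± 0.40 in controls to -5.00 ± 0.59 in the Cyp7a1 group (SD, n = 8 each), a difference of -2.09 with an exact permutation p of 0.000155. Of the 9 ratios computed, those to Nr1h4, Rxra, Hnf4a, Nr5a2 and Mafg did not overlap between the groups. Those to Osgin1, Zfp36l1, Fetub and Sdc1 overlapped, with differences of -1.19, -1.73, -1.99 and -2.08. Their unadjusted exact permutation p-values were 0.0042 for Osgin1, 0.000466 for Zfp36l1, 0.000311 for Fetub and 0.000466 for Sdc1. The smallest difference was that against Osgin1, the member with the next largest fold change.

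**Figure D2:**
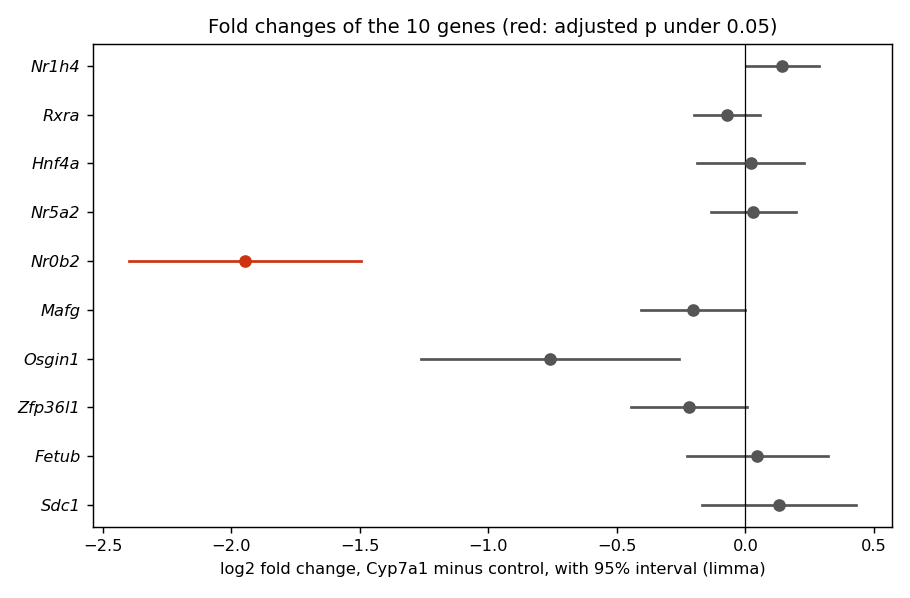
Log2 fold change of each gene, Cyp7a1 minus control (horizontal axis), with limma's 95% interval as a line; red marks an adjusted p under 0.05. Nr0b2 lies at -1.95, Osgin1 at -0.76 with a wide interval, and the other 8 genes between -0.22 and 0.14.

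The 5 other FXR-induced members did not pass the threshold. Osgin1 (chromosome 8, 119434124 to 119446256, plus strand), an oxidative stress induced growth inhibitor that is also a known target of the stress factor NRF2, had the widest spread. Controls had 977 to 3915 normalized counts (median 1754), with Control 20 far above the next control at 2130, and the Cyp7a1 group had 676 to 1725 (median 1007). All 8 Cyp7a1-labelled livers were below the control median, and 4 were below the lowest control, Control 7. Osgin1 had a log2 fold change of -0.76 (95% interval -1.26 to -0.26; limma adjusted p = 0.0676, exact permutation p = 0.0115). The limma adjusted p was 0.0285 without Control 7, 0.0425 without Cyp7a1 2 and 0.0921 without Control 20 (0.0285 to 0.123 with 1 library left out), and DESeq2 gave 0.0375. The log2 fold change was -0.59 without Control 20.

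Mafg (chromosome 11, 120625117 to 120633600, minus strand) encodes a small MAF protein that represses Cyp8b1 and other bile acid genes. It had 1679 to 2966 normalized counts in controls (median 2100) and 1617 to 2056 in the Cyp7a1 group (median 1902). All 8 Cyp7a1-labelled livers were below the control median, but 2 were below the lowest control. Mafg had a log2 fold change of -0.20 (95% interval -0.40 to -0.0017; limma adjusted p = 0.239), and -0.13 without Control 20. Exons of Mafg and Sirt7 overlap by 124 bases on the same strand in GENCODE M21, so reads there may go to either gene.

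Zfp36l1 (chromosome 12, 80107754 to 80113013, minus strand) encodes an RNA-binding protein that promotes decay of its target messages, Cyp7a1 among them. It had 1967 to 3340 normalized counts in controls and 1888 to 2885 in the Cyp7a1 group. Its log2 fold change was -0.22 (95% interval -0.44 to 0.0068), and 7 of the 8 Cyp7a1-labelled livers were below the control median. A noncoding gene on the opposite strand, Gm26669, covers 1672 of its exonic bases, and no source used here gives the strand setting of the counting. Its limma adjusted p was 0.260.

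Fetub and Sdc1 had mean fold changes above 0. Fetub (chromosome 16, 22918334 to 22939778, plus strand), a secreted cystatin family protein made by the liver, had 7211 to 13160 normalized counts in controls and 7341 to 13448 in the Cyp7a1 group, with a log2 fold change of 0.05 (95% interval -0.23 to 0.32). Sdc1 (chromosome 12, 8771323 to 8793715, plus strand), a heparan sulfate proteoglycan that takes up lipoprotein remnants, had 2649 to 3737 in controls and 2396 to 5377 in the Cyp7a1 group. For Sdc1, 2 of the 8 Cyp7a1-labelled livers lay below every control and 4 above every control. Its coefficient of variation was 13.1% in controls and 26.8% in the Cyp7a1 group, and its log2 fold change was 0.13 (95% interval -0.17 to 0.43). The log2 fold change of Sdc1 was 0.05 without Cyp7a1 17 and 0.21 without Cyp7a1 24. The difference in spread was not tested.

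Per kilobase of exon, the control levels ran from 5078 ± 1119 normalized counts for Fetub through 3112 ± 416 for Hnf4a, 2639 ± 193 for Rxra and 1813 ± 157 for Nr1h4 (SD, n = 8). They went on with 905 ± 153 for Zfp36l1, 866 ± 114 for Sdc1, 710 ± 335 for Osgin1, 502 ± 123 for Nr0b2, 385 ± 72.6 for Mafg and 173 ± 25.1 for Nr5a2. Neighbours in this order had overlapping ranges except Rxra above Nr1h4, Nr1h4 above Zfp36l1 and Mafg above Nr5a2. In the Cyp7a1 group Nr0b2, at 134 ± 55.3, took the lowest place beneath Nr5a2 at 176 ± 14.2, with overlapping ranges. The message of the repressor thus went from above that of its partner Nr5a2 in all 8 controls to a similar level per kilobase.

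The other genes of the pathway were given by lists chosen with earlier results of these data known. In all, 95 listed genes outside the 10 were in the table, of which 5 were higher and 7 lower by the limma test. Over all genes tested, 3.07% were higher and 3.05% lower, and no test of the list counts against these shares was made. Their median log2 fold change was -0.0069, against 0.0034 for all genes.

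Among 12 tested genes induced by FXR in the liver, Pltp rose and Insig2 fell, and 10 did not pass. Pltp, the phospholipid transfer protein, went from 1766 ± 581 normalized counts to 3738 ± 1088 (SD, n = 8 each), and 7 of the 8 Cyp7a1-labelled livers exceeded every control. Insig2, which holds back the processing of sterol-responsive factors, had a log2 fold change of -0.57 (limma adjusted p = 0.0259), but 0.0509 without Control 12 and 0.0512 without Cyp7a1 28. The bile salt exporter Abcb11 had a log2 fold change of -0.06 (95% interval -0.29 to 0.18) and the phospholipid flippase Abcb4 one of 0.04 (95% interval -0.09 to 0.18). Both are standard FXR targets, and they are given here outside the naming rule, after their values were seen. The list's median was 0.03, and Slc51a and Slc51b were not among the tested genes.

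Of 12 genes repressed through FXR, SHP or the FGF15 hormone, 2 rose and 1 fell, with a list median of 0.12. Csad, an enzyme of taurine synthesis, went from 2432 ± 827 normalized counts to 12575 ± 1378 (SD, n = 8 each), and the lowest Cyp7a1-labelled liver was 2.87 times the highest control. Cyp8b1, the sterol 12-alpha-hydroxylase that sets the bile acid mixture, had a log2 fold change of 1.23 (limma adjusted p = 3.79e-06), and its groups did not overlap. Srebf1, a regulator of fatty acid synthesis, moved the other way, with a log2 fold change of -0.98 (limma adjusted p = 3.23e-05). Cyp7a1 itself was among the 9 that did not pass.

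Among the listed targets of LRH-1 outside the 10, Cyp8b1 rose, Abcg5, Abcg8 and Scarb1 fell, and Cyp7a1 did not pass. Abcg5 and Abcg8, which pair to form a sterol exporter, had log2 fold changes of -1.26 and -1.14, and Scarb1, the HDL receptor, of -0.46. Abcg5 and Abcg8 are neighbours, and whether their exons overlap was not examined. For HNF4 alpha, 1 of 14 targets was higher and 0 lower, with a median of 0.09. The higher one was Tat, tyrosine aminotransferase, with a log2 fold change of 0.84 and a limma adjusted p of 0.0466. Leaving out any of 11 single libraries ended this call, with adjusted p up to 0.0906.

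Among 16 FXR partners and coregulators, Ppargc1a, a coactivator of many nuclear receptors, rose and 0 fell (median -0.06). Ppargc1a went from 103 ± 17.5 normalized counts to 167 ± 25.3 (SD, n = 8 each; log2 fold change 0.69, limma adjusted p = 0.00175), with 7 of the 8 Cyp7a1-labelled livers above every control. None of 14 corepressor partners of SHP passed in limma, and the 2 with the smallest p were Hdac2, a histone deacetylase, at a log2 fold change of 0.17, and Tbl1xr1, a corepressor subunit, at 0.16. Hdac2 passed the threshold without Control 35 (limma adjusted p = 0.0396) and without Cyp7a1 5 (0.0426). Of 11 other receptors that pair with RXR, Rara, a retinoic acid receptor, fell with a log2 fold change of -0.35 (limma adjusted p = 0.0127). In the list of the bile acid signal between intestine and liver, 4 genes were tested, all in liver, and 0 passed. Fgf15 itself, Gpbar1 and Vdr were not among the tested genes. The log2 difference was 0.12 for Fgfr4, the FGF15 receptor, and -0.34 for Nr1i3, the xenobiotic receptor CAR (limma adjusted p = 0.0930, 0.0430 with quantile normalization, 0.0445 with DESeq2 and 0.0477 without Control 13).

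Of 8 MAF and CNC factors, the family in which Mafg finds its partners, Bach2, a transcriptional repressor, fell with a log2 fold change of -1.27 (limma adjusted p = 0.0025), and its groups did not overlap. Of 7 tested relatives of the members themselves, 0 passed. The 2 with the smallest p were Nr1h5, a second FXR-type receptor gene, at -0.13 and Ahsg, the fetuin related to Fetub, at 0.16.

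**Figure D3:**
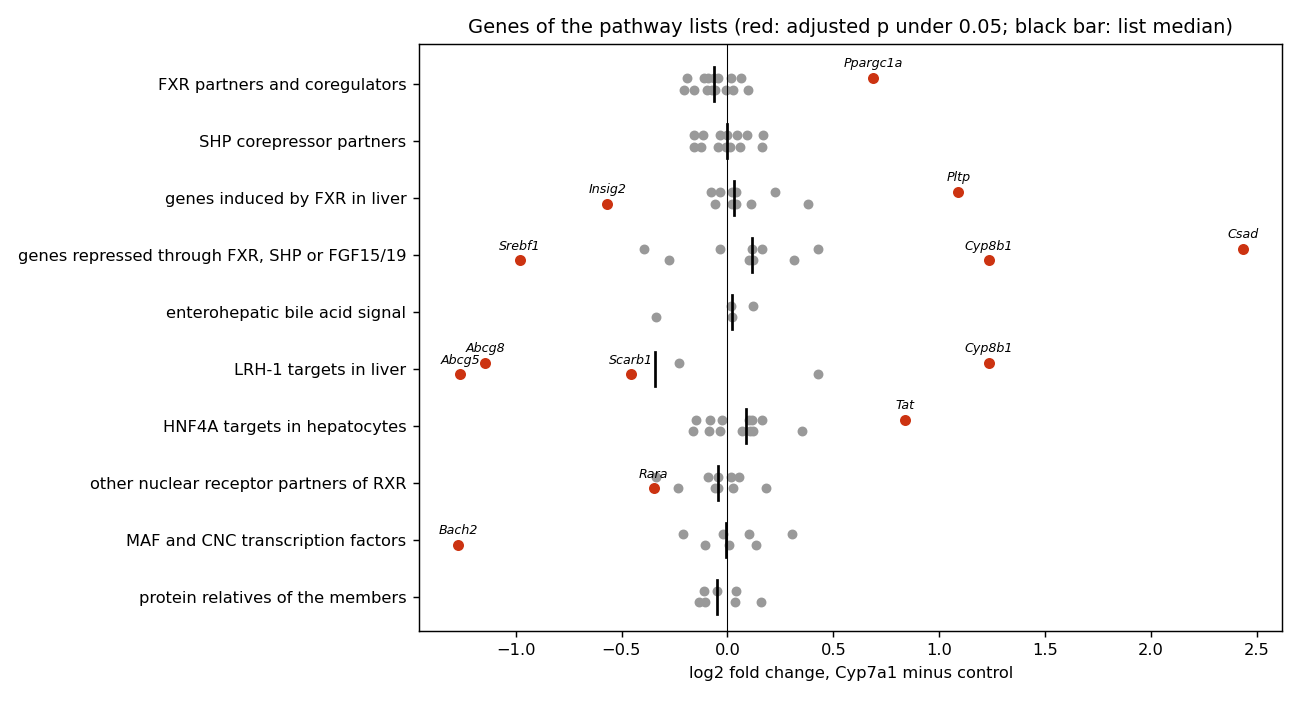
Log2 fold change, Cyp7a1 minus control (horizontal axis), of each tested gene in the 10 pathway lists (rows); red points have an adjusted p under 0.05 and are named, and black bars are list medians. Csad at 2.43 and Cyp8b1 at 1.23 lie highest, and Bach2 at -1.27 and Abcg5 at -1.26 lie lowest; a gene may be in several lists.

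Variation between livers of a group was described after subtracting each group's mean. Of 45 pairs of members, 36 had a Pearson correlation above 0 over the 16 livers, with a median of 0.33. Hnf4a and Sdc1 varied most closely together (r = 0.89), followed by Nr5a2 and Mafg (0.79) and Hnf4a and Fetub (0.78). For Nr0b2, r was below 0 in 6 of its 9 pairs, with the lowest value against Hnf4a (-0.47). Among controls the negative values against Hnf4a, Sdc1 and Fetub rest on Control 16 and Control 38, the 2 controls lowest in Nr0b2. Without them, r within controls went from -0.26 to 0.40 for Nr0b2 with Hnf4a, from -0.28 to 0.74 with Sdc1 and from -0.37 to 0.30 with Fetub. It stayed below 0 with Zfp36l1 (-0.45 to -0.20) and Osgin1 (-0.24 to -0.08). Within the Cyp7a1 group, Nr0b2 with Hnf4a had r = -0.61, and -0.51 without Cyp7a1 5 and Cyp7a1 26. These values are descriptive and share library, depth and scaling.

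Marker sums of stellate cells and of cholangiocytes were high in the livers lowest in Hnf4a. Control 7 and Control 13 had the 2 lowest Hnf4a values of the controls, 13254 and 12054. They also had the 2 highest sums of 8 stellate cell and fibrosis markers among controls, 16126 and 16687 normalized counts, against a lowest control of 6332. In the Cyp7a1 group, Cyp7a1 24 and Cyp7a1 26 had the lowest Hnf4a (12837 and 12551) and Sdc1 (2396 and 2510), and the highest stellate sums, 15202 and 13156. Cholangiocyte sums were likewise the 2 highest of the controls in Control 7 and Control 13, 3837 and 3088. In the Cyp7a1 group they were highest in Cyp7a1 24 and Cyp7a1 26, 3952 and 3422. Hepatocyte sums were lowest of the controls in Control 13 (1671510), then Control 12 (1739620) and Control 7 (1740780). Control 12 was not among the controls low in Hnf4a, at 16025. In the Cyp7a1 group the lowest were Cyp7a1 24 and Cyp7a1 26 (1738170 and 1866280). The part of these marker sums in the values of the members was not tested. Between the groups the stellate sums overlapped, 6332 to 16687 in controls and 8140 to 15202 in the Cyp7a1 group, and 0 of the 8 markers passed. Sums of 8 Kupffer cell and macrophage markers ran from 7340 to 13585 and from 6112 to 24280, with 0 passing. Of 6 tested cholangiocyte markers 1, Krt23, was lower (log2 fold change -2.15), and the sums were 1105 to 3837 and 1311 to 3952. Of 6 endothelial markers (7128 to 9102 and 6223 to 8772) and 3 tested lymphocyte markers (165 to 699 and 153 to 1068) 0 passed. Cela1, the 1 tested gene of 6 from intestine or pancreas, was lower (log2 fold change -0.43), at 118 to 231 and 90.5 to 137. The part of Krt23, Cela1 and the marker sums in the fall of Nr0b2 was not tested. Within the Cyp7a1 group, Nr0b2 was 102 in Cyp7a1 24 and 269 in Cyp7a1 26, the 2 livers with the highest stellate sums.

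**Figure D4:**
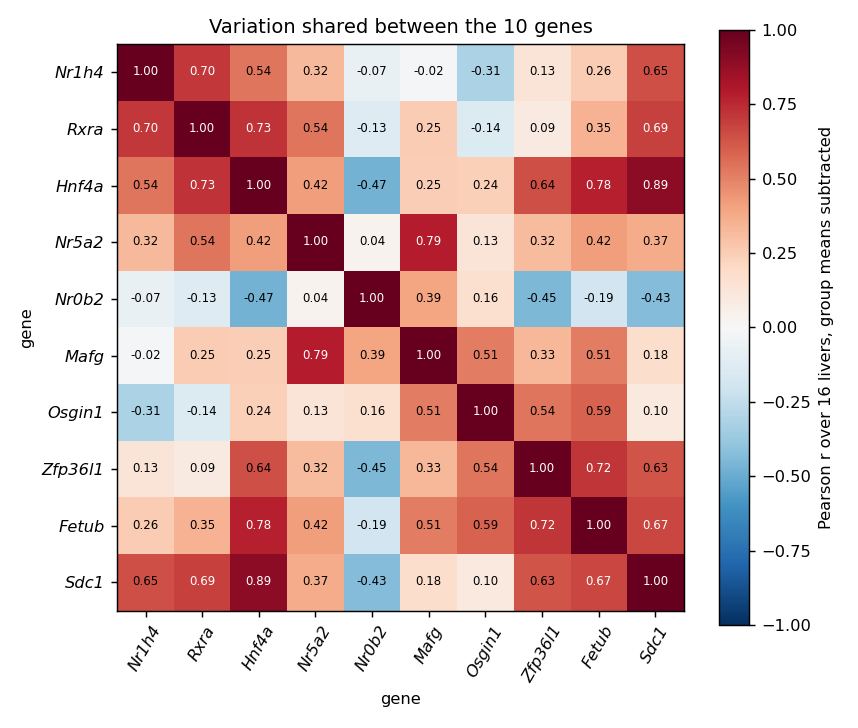
Pearson correlation between each pair of the 10 genes over 16 livers after the group mean was subtracted from log2 values (colour scale from -1 to 1, values printed in the cells). Hnf4a reaches 0.89 with Sdc1, 0.78 with Fetub and 0.73 with Rxra, while Nr0b2 has -0.47 against Hnf4a.

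Correlations of Nr0b2 and Nr1h4 with other genes were then tested within each group of 8, 50 relations in all. Of these, 5 had an unadjusted exact permutation p under 0.05 by Pearson and 4 by Spearman, and 0 passed after Benjamini-Hochberg adjustment. The strongest was Nr1h4 with Cyp7a1 in the Cyp7a1 group, with r = 0.94 (exact permutation p = 0.00141, adjusted 0.0707) and rho = 0.83 (p = 0.0154, adjusted 0.349). Without the 2 livers farthest in Nr1h4, Cyp7a1 2 and Cyp7a1 28, r was 0.91. In controls the same pair had r = 0.65 (exact permutation p = 0.0817, adjusted 0.508), rho = 0.79 (p = 0.0279, adjusted 0.349), and r = 0.89 without Control 12 and Control 13. Nr1h4 and Cyp8b1 had r = 0.85 in the Cyp7a1 group (exact permutation p = 0.0094, adjusted 0.228) and rho = 0.83 (p = 0.0154, adjusted 0.349), and r = 0.95 without Cyp7a1 2 and Cyp7a1 28. In controls this pair had r = 0.36 (exact permutation p = 0.384, adjusted 0.836), rho = 0.48 (p = 0.243, adjusted 0.675), and r = 0.39 without Control 12 and Control 13. The differences between the groups were not tested.

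Nr0b2 and Cyp8b1 had r = -0.81 in controls (exact permutation p = 0.0162, adjusted 0.228) and rho = -0.60 (p = 0.132, adjusted 0.601). Without Control 16 and Control 38, the 2 controls lowest in Nr0b2, r was -0.37. Leaving them out also narrows the range of Nr0b2, so this cannot show whether the relation rests on those livers. In the Cyp7a1 group it was -0.20 (exact permutation p = 0.631, adjusted 0.901), with rho = -0.07 (p = 0.882, adjusted 0.959) and r = -0.19 without Cyp7a1 5 and Cyp7a1 26. Nr0b2 with Cyp7a1 had r = -0.20 in controls (exact permutation p = 0.621) and 0.07 in the Cyp7a1 group (p = 0.874), with adjusted values of 0.901 and 0.984. The rho was 0.17 in controls (exact permutation p = 0.703) and 0.19 in the Cyp7a1 group (p = 0.665). Without Control 16 and Control 38, r in controls was 0.99 over 6 livers. Without Cyp7a1 5 and Cyp7a1 26, r in the Cyp7a1 group was -0.08.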

How the data were processed

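The deposited table gives normalized counts, a signal for every gene in every library. The tools named for mm10 in the submitters' processing notes, without role or order, are R 3.6.3, DESeq2, featureCounts, STAR 2.7.11a and Trim Galore 0.6.10. In each library 99.94% to 99.99% of values were whole multiples of a fitted step (tolerance 0.05 reads), which gave the recovered reads. Ccne2, with text in 1 cell, was left out. Of the gene IDs, 12593 matched the gene symbol table.

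The main test was limma 3.58.1 (R 4.3.3; eBayes with trend), two-sided, on log2(value + 1), 8 against 8 libraries, Benjamini-Hochberg over 12617 genes, threshold 0.05. Fold changes are Cyp7a1 minus control on that scale, and changes of low genes are understated. Permutation tests were two-sided and exact. The minimum mean of 10 removed no gene. The test steps were checked on simulated data. Alternatives were a pseudocount of 8, a minimum mean of 50 or none, quantile normalization, equal totals, array weights, edgeR 4.0.16 and DESeq2 1.42.0 on recovered reads, and leaving out each library. Leaving out Control 20 with Cyp7a1 24 was chosen after seeing the data.

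The members and lists were chosen with earlier results of these data known. Named genes are the members, Cyp7a1, up to 4 genes per list past the threshold (2 with the smallest p otherwise) and the 5 genes most like Nr0b2 and Nr1h4. The result of 1 listed gene is not reported here.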

Additional observations from a re-analysis of the deposited data

Results flagged for a closer look

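Control 20 stood apart from the other 7 controls in its level of Osgin1, 3915 normalized counts against 2130 for the next control. The gap was 0.608 of the whole range, above Dixon's 95% critical value for 8 samples. On the log2 scale used for the test the gap was 0.439 of the range, below that value. In each scale 20 groups of 8 were looked at, of which chance gives about 1, and this was the 1 found with normalized counts, with 0 on the log2 scale.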

How the results depend on the processing

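Nr0b2 kept its direction and its call under all 25 alternatives, with log2 fold changes from -2.08 to -1.79 and adjusted p up to 0.000247. The number of members lower was 1, but 2 with DESeq2 on recovered reads and 1 to 2 when 1 library was left out. With 1 library left out, genes called over the whole table ranged from 230 higher and 245 lower without Cyp7a1 28 to 399 and 414 without Control 7, and lower genes were 256 without Control 16. Array weights gave 485 and 450, DESeq2 548 and 573, and equal totals 263 and 372, against 387 and 385 as reported. Values near 0 changed sign. The log2 fold change of Hnf4a was -0.025 with quantile normalization and -0.024 to 0.059 with 1 library left out, where that of Nr5a2 was -0.0055 to 0.074 and that of Fetub -0.015 to 0.11. The cause was not tested. No paired analysis was possible because the groups share no replicate number in the labels. The median of all genes moved by less than 0.01 (log2) under any scaling. With 8 livers a group, unadjusted 95% intervals of the uncalled members, apart from Osgin1, reach from a 0.735-fold to a 1.348-fold level. The size of difference that could be detected was not computed.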

Other observations

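The genes whose variation between livers was most like that of Nr0b2, among 10450 ranked, were Plekhf1 (r = 0.85), Ccdc191 (0.80), Fam188b (0.78), Rai14 (0.75) and Mrpl35 (0.74), over 16 livers with group means subtracted. None of these 5 passed the limma threshold between the groups, with log2 fold changes of -0.28, -0.02, -0.32, -0.14 and -0.02. The genes most like Nr1h4 were Aatk (r = 0.90), Idh3a (0.88), Qrich1 (0.87), Atrn (0.86) and Usp40 (0.86). Of these, Idh3a, a subunit of mitochondrial isocitrate dehydrogenase, rose with a log2 fold change of 0.33 (limma adjusted p = 0.0477), and Aatk had -0.35 (adjusted p = 0.268). With so many genes ranked over 16 livers, high values are to be found for any gene, and these are given as a description.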
